A study of Mus musculus with 2 samples.

Results

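The 48 genes described here encode the Wnt ligands, their receptors and regulators in the midbrain of newborn mice. They were taken by symbol from the gene tables of 2 total RNA-seq libraries and comprise 16 Wnt ligands, 15 receptors and co-receptors, 5 R-spondin and LGR genes, 6 secreted inhibitors and 6 intracellular members. All 48 were found, among 43346 Ensembl genes in the tables, of which 21474 are annotated as protein-coding. The series holds 1 group, mice of strain B6NCrl on postnatal day 0, with no genotype or treatment named, and the group has 2 animals, called pup 1 and pup 3 in the labels. Each library was made from the single midbrain of 1 pup, the donor identifier is the same for both, and the labels record no sex. Since there is no second condition, levels are described in each pup, and the only comparisons are between genes within a library and between the 2 pups.

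Wnt proteins are secreted, lipid-modified signals. In the canonical branch a Wnt bridges a Frizzled receptor and the co-receptor Lrp5 or Lrp6, Dishevelled is recruited, and the Axin, Apc and Gsk3b complex stops marking β-catenin (Ctnnb1) for destruction, so that β-catenin enters the nucleus and acts with TCF and LEF factors. Other branches run through Ror, Ryk and the planar polarity proteins. In the embryonic midbrain, Wnt1 at the isthmus and dorsal midline is known for patterning, Wnt5a for the development of dopaminergic neurons, and Wnt7a and Wnt7b for the growth of brain vessels.

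The libraries summed to 36934868 expected counts in pup 1 and 40769103 in pup 3, and 1 count was worth 0.0178 and 0.0164 TPM (transcript abundance per length, scaled to the same total in each library), as medians over protein-coding genes at 1 TPM or more. The midbrain markers Otx2 (50.3 and 51.2 TPM), Gata3 (80.6 and 75.6 TPM) and En1 (8.60 and 7.82 TPM) were read in both pups, and 5 of 6 midbrain markers reached 1 TPM in both. The Hox genes Hoxa2, Hoxb4 and Hoxa5, markers of hindbrain and spinal cord, were at 0 counts in both, which allows up to 3 counts. The summed TPM of 7 hypothalamic markers was 169 in pup 1 and 375 in pup 3, with 7 of 7 higher in pup 3, and that of 8 forebrain markers was 46.6 and 71.4, with 8 of 8 higher in pup 3. The 2 tissue pieces therefore differed in marker levels of neighbouring regions. In bulk tissue, more cells of a type and more RNA per cell cannot be told apart.

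For 4 of the members, Gsk3b, Lgr4, Axin1 and Ryk, 2 coding transcripts that shared most of the gene's TPM have coding sequences that differ by 1 in-frame segment. These 4 were chosen after their transcript shares were seen, and the segments are shown because they are where the encoded proteins differ. The Lgr4 transcripts differ in length by the segment alone (5060 and 4988 nt), while those of the other 3 genes also differ outside it, so reads elsewhere enter their shares too. The sequences are from GENCODE M21 transcripts on mm10, all on the plus strand, with the segment in capitals and the 20 bases of coding sequence on each side in lower case.

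Gsk3b, exon 9 of 12, chr16:38217113-38217151: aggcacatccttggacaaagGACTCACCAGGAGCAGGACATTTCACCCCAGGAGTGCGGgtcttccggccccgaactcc
Lgr4, exon 2 of 18, chr2:109970692-109970763: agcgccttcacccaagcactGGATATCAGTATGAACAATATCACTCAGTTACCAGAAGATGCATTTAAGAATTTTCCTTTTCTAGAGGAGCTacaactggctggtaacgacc
Axin1, exon 9 of 11, chr17:26192516-26192623: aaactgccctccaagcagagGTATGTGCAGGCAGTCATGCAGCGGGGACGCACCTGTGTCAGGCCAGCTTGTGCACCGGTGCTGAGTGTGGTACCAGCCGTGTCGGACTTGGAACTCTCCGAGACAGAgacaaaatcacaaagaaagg
Ryk, start of exon 8 of 15, chr9:102885994-102886002: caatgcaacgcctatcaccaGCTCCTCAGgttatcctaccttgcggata

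The segment of Gsk3b has 39 bases and adds 13 codons, giving 433 in place of 420. That of Lgr4 has 72 bases and adds 24 codons (951 against 927), that of Axin1 has 108 bases and adds 36 codons (868 against 832), and that of Ryk has 9 bases and adds 3 codons (594 against 591). Their shares are given with each gene.

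In all, 36 of the 48 genes (75%) reached 1 TPM in each of the pups. Of all protein-coding genes in the tables, 62.1% met the same criterion. Among ligands 8 of 16 did so, among receptors 12 of 15, among inhibitors 5 of 6, and among the R-spondin and LGR genes and the intracellular members 5 of 5 and 6 of 6. The median ligand was at 1.20 TPM in pup 1 and 1.46 TPM in pup 3. The median receptor was at 2.29 and 2.81 TPM, the median R-spondin or LGR gene at 1.89 and 2.42 TPM, the median inhibitor at 5.41 and 6.77 TPM, and the median intracellular member at 41.9 and 52.2 TPM. The median protein-coding gene stood at 4.52 and 4.70 TPM, so that both pups placed the median ligand and the median receptor below it.

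**Figure D1:**
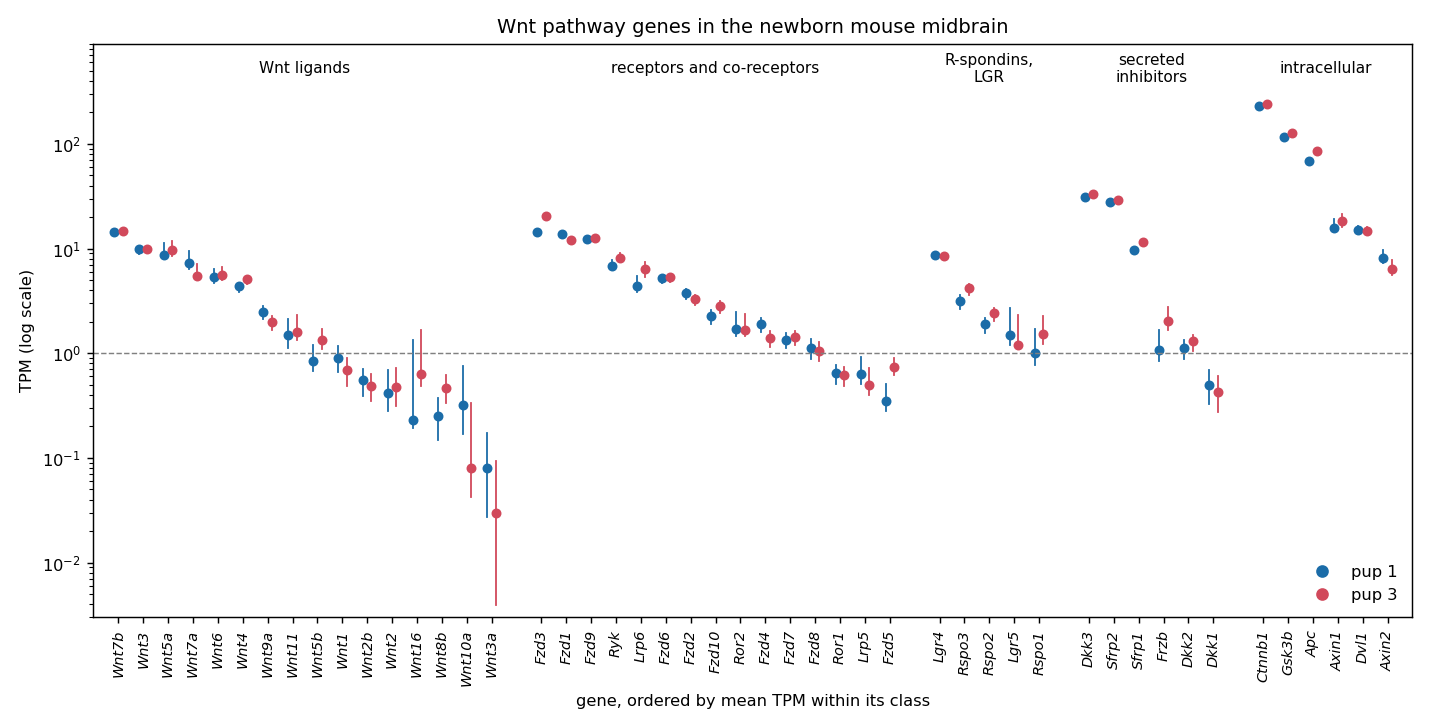
TPM (log scale) of the 48 Wnt pathway genes in pup 1 (blue) and pup 3 (red), ordered by mean within each class. Vertical lines are the credibility intervals deposited with each value, and the dashed line marks 1 TPM; 36 genes lie at or above it in both pups, and the intracellular members lie highest.

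Most of the Wnt message came from 6 ligands. Wnt7b, Wnt3, Wnt5a, Wnt7a, Wnt6 and Wnt4 together made up 86.8% of the summed ligand TPM in pup 1 and 86.6% in pup 3, while the ligands best known from midbrain patterning, Wnt1 and Wnt3a, were below 1 TPM. Wnt7b (chr15:85535437-85582473) led with 14.4 TPM in pup 1 and 14.7 TPM in pup 3, 14.6 ± 0.205 TPM (SD, n = 2), which is 25.2% ± 0.139 (SD, n = 2) of the ligand sum. Its deposited interval lay above that of Wnt3, the next ligand, in both pups. Wnt3 (chr11:103774150-103817957) was at 9.85 and 9.92 TPM. Wnt5a (chr14:28504750-28527448), which signals largely outside the β-catenin branch, was at 8.61 and 9.60 TPM. The intervals of Wnt3 and Wnt5a overlapped in both pups, so these neighbours in the order were not separated.

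Wnt7a (chr6:91363981-91411363), the close relative of Wnt7b, was at 7.27 TPM in pup 1 and 5.49 TPM in pup 3. Wnt6 was at 5.37 and 5.62 TPM, and Wnt4, best known from kidney and gonad development, at 4.40 and 5.08 TPM. The order of Wnt7a and Wnt6 was reversed between the pups and their intervals overlapped in both. Below these 6, Wnt9a was at 2.49 and 1.98 TPM and Wnt11, a ligand of the non-canonical branch, at 1.48 and 1.58 TPM; Wnt5b crossed 1 TPM in pup 3 only (0.85 and 1.34 TPM).

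The other 7 ligands were below 1 TPM in both pups. Wnt1 (chr15:98789857-98793837) had 48 counts in pup 1 and 40 in pup 3, that is 0.91 and 0.69 TPM. Wnt2b was at 0.55 and 0.49 TPM and Wnt2 at 0.42 and 0.48 TPM, and the intervals of this pair overlapped in both pups. Wnt8b had 19 and 39 counts (0.25 and 0.47 TPM), Wnt16 12 and 26 counts (0.23 and 0.64 TPM), and Wnt10a 13 and 5 counts (0.32 and 0.08 TPM). Wnt3a, the lowest ligand, had 5 and 2 counts (0.08 and 0.03 TPM), close to the 3 counts that a reading of 0 would allow. From Wnt1 to Wnt3a, every ligand's interval overlapped that of the next in the order in both pups, so neighbours in this order were not separated, although Wnt1 lay above Wnt3a, at the far end, in both pups.

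Some Wnt genes lie within 100 kb of each other in the mouse genome with no annotated protein-coding gene between them, and in each of the 4 such pairs 1 gene was far above its neighbour. On chromosome 1, Wnt6 (chr1:74771892-74785322) and Wnt10a (chr1:74791516-74804179) are 6193 bp apart on the same strand. Wnt6 exceeded Wnt10a by 3.70 in pup 1 and 4.99 in pup 3 on the log2(TPM + 0.1) scale, a mean of 4.35 ± 0.91 (SD, n = 2). On chromosome 11, Wnt9a lies 16175 bp from Wnt3a, and Wnt3a was below it by a log2 difference of -3.92 ± 0.108 (SD, n = 2). Further along that chromosome, Wnt3 lies 24328 bp from Wnt9b, a ligand outside the 48 genes that stood at 1.04 and 1.09 TPM, for a log2 difference of Wnt9b over Wnt3 of -3.10 ± 0.037 (SD, n = 2). On chromosome 15, Wnt1 lies 11706 bp from Wnt10b, which had 2 counts in each pup (0.04 TPM), for a log2 difference of Wnt10b over Wnt1 of -2.67 ± 0.25 (SD, n = 2). The last of the 4 rests on 2 genes below 1 TPM. Wnt3a and Wnt10b in both pups, and Wnt10a in pup 3 (0.08 TPM), were below the 0.1 TPM added for the log2 scale. That added value therefore affects the size and SD of the differences that involve them. Wnt8a, the remaining Wnt ligand outside the 48 genes, was at 0 counts in both pups, which allows up to 3 counts.

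**Figure D2:**
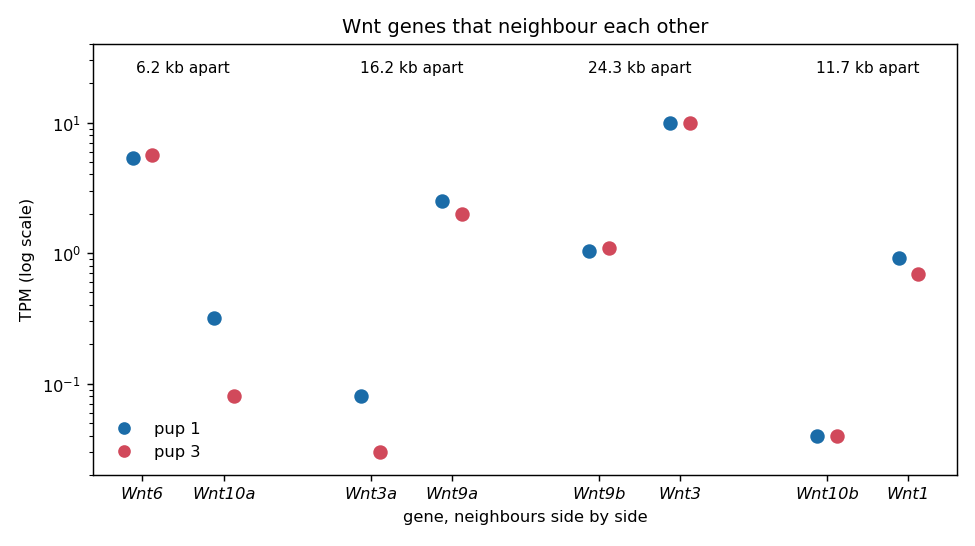
TPM (log scale) of 4 pairs of Wnt genes that are adjacent in the genome, in pup 1 (blue) and pup 3 (red), with the gap between the genes above each pair. In each pair 1 gene lies well above the other in both pups: Wnt6 over Wnt10a, Wnt9a over Wnt3a, Wnt3 over Wnt9b, and Wnt1 over Wnt10b.

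Among the receptors, 3 Frizzled genes stood above the rest. Fzd3 (chr14:65192449-65262463), known for planar polarity and axon guidance, was at 14.4 TPM in pup 1 and 20.4 TPM in pup 3. Fzd1 (chr5:4753839-4758035) was at 13.91 and 12.03 TPM and Fzd9 (chr5:135248938-135251230) at 12.5 and 12.7 TPM. The intervals of Fzd3 and Fzd1 overlapped in pup 1 and were apart in pup 3, while those of Fzd1 and Fzd9 overlapped in both. Fzd6, the closest relative of Fzd3, was at 5.26 and 5.34 TPM. The Frizzled pair Fzd3 and Fzd6 held 34.6% of the summed Frizzled TPM in pup 1 and 42.1% in pup 3. The subfamily of Fzd1, Fzd2 and Fzd7 held 33.5% and 27.4%, that of Fzd4, Fzd9 and Fzd10 29.3% and 27.5%, and that of Fzd5 and Fzd8 2.60% and 2.94%. The Fzd3 transcript behind these TPM is 4157 nt long, against 12734 nt in GENCODE M21. Those of Fzd4 (3685 against 6720 nt) and Fzd8 (3346 against 5974 nt) are also shorter than in M21. The effect of these lengths on the levels and shares was not tested.

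The other Frizzled genes were lower. Fzd2 was at 3.80 and 3.31 TPM, Fzd10 at 2.29 and 2.81 TPM, and Fzd4, which also binds the non-Wnt ligand Norrin in vessels, at 1.91 and 1.40 TPM. Fzd7 was at 1.35 and 1.44 TPM and Fzd8 at 1.13 and 1.06 TPM. Fzd5 was the lowest receptor by its mean, with 0.35 TPM in pup 1 and 0.74 TPM in pup 3, and it was the only Frizzled below 1 TPM in both pups.

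Lrp6 (chr6:134446476-134566965), the co-receptor of the canonical branch, was at 4.43 and 6.40 TPM, against 0.64 and 0.50 TPM for its relative Lrp5. Lrp6 exceeded Lrp5 by 3.03 ± 0.58 (SD, n = 2) on the log2(TPM + 0.1) scale. Ryk (chr9:102834917-102908305), a receptor with an inactive kinase domain, was the fourth receptor at 6.75 and 8.12 TPM. Its transcript with the 9-base segment printed above held 29.9% of the Ryk TPM in pup 1 and 30.0% in pup 3, and the transcript without it 55.9% and 54.0%. The receptor kinases of the Ror family were lower, with Ror2 at 1.69 and 1.66 TPM and Ror1 at 0.65 and 0.62 TPM.

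R-spondins amplify Wnt signals by binding LGR receptors and removing the enzymes that degrade Frizzled, and all 5 such members were read at 1 TPM or more. Lgr4 (chr2:109917647-110014257) led with 8.59 and 8.47 TPM, 8.53 ± 0.085 (SD, n = 2). Lgr5, a stem cell marker in many epithelia, was at 1.48 and 1.19 TPM. Lgr4 exceeded Lgr5 by 2.60 ± 0.19 on the log2(TPM + 0.1) scale (SD, n = 2). Of the ligands of these receptors, Rspo3 was at 3.17 and 4.17 TPM, Rspo2 at 1.89 and 2.42 TPM and Rspo1 at 1.00 and 1.51 TPM. All 3 were higher in pup 3 and kept the same order in both pups. The Lgr4 transcript that carries the 72-base segment held 20.0% of the Lgr4 TPM in pup 1 and 40.4% in pup 3. The transcript without it held 79.0% and 57.8%, and so led in both animals. These shares differed between the 2 pups more than those of the other 3 genes with printed segments. Only reads that touch the segment or its edges can tell the 2 Lgr4 transcripts apart, and their number is not known here. The posterior shares with the segment were 24.9% and 42.2%. No interval was computed for any of these shares.

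The secreted inhibitors were dominated by Dkk3 and Sfrp2. Dkk3 (chr7:112116017-112159057), the divergent member of the Dickkopf family, was at 31.3 and 33.0 TPM and held 43.2% ± 0.668 (SD, n = 2) of the summed inhibitor TPM. Sfrp2 (chr3:83766321-83774316), a soluble protein with a Frizzled-type Wnt-binding domain, was at 28.0 and 29.0 TPM, and its interval overlapped that of Dkk3 in pup 1 but not in pup 3. Of the exon bases of Sfrp2, 347 of 2153 are shared with the antisense gene Gm26771, listed at 7.69 and 7.33 TPM. Whether strand was used in counting is not given in the sources used here, so reads from these 2 genes may not have been separable. Sfrp1 was at 9.68 and 11.5 TPM.

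The remaining 3 inhibitors were near or below 2 TPM. Frzb (also called Sfrp3) had 71 counts in pup 1 and 145 in pup 3, that is 1.07 and 2.05 TPM. Dkk2 was at 1.13 and 1.30 TPM. Dkk1, the classical inhibitor that blocks Lrp5 and Lrp6, was the lowest at 0.50 and 0.43 TPM. Dkk3 exceeded Dkk1 by 5.84 ± 0.18 and Dkk2 by 4.62 ± 0.077 on the log2(TPM + 0.1) scale (SD, n = 2).

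The intracellular members were the highest class, and Ctnnb1 (β-catenin, chr9:120929216-120960507) was the highest of all 48 genes with 231 and 241 TPM, 236 ± 7.19 (SD, n = 2). It ranked 660 by mean TPM among the protein-coding genes. Since β-catenin also links cadherins to the cytoskeleton, its message is not specific to Wnt signalling. Gsk3b (chr16:38089001-38246084), the kinase of the destruction complex, was at 115 and 127 TPM, and Apc (chr18:34220924-34322552), a scaffold of that complex, at 68.1 and 86.2 TPM. The intervals of Ctnnb1, Gsk3b, Apc and Axin1, in this order, were apart in both pups. Of the exon bases of Ctnnb1, 759 of 5192 are shared with Ulk4 on the opposite strand, which was at 2.63 and 3.29 TPM.

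Axin1 (chr17:26138688-26195811), a scaffold of the destruction complex, was at 15.8 and 18.2 TPM, and Dvl1, 1 of the Dishevelled proteins, at 14.9 TPM in both pups. The intervals of these 2 genes overlapped in both pups. Axin2 (chr11:108920349-108950783), the relative of Axin1 that is itself induced by Wnt signalling, was the lowest intracellular member at 8.20 and 6.31 TPM.

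The transcript tables show which isoforms carried these levels. Of the members, 16 had 2 or more transcripts and a mean of at least 5 TPM, and in 16 of 16 the same transcript led in both pups. For 14 of them the leading transcript is annotated as protein-coding, and for 5 it held over 90% of the TPM in the mean of the pups. Gsk3b was the clearest of the genes with printed segments: the 420-codon transcript without the 39 bases held 92.8% and 91.1% of its TPM, and the one with them 5.18% and 5.95%. In Axin1 the form with the 108-base segment led, with 71.5% and 59.5%, against 28.5% and 26.8% for the form without it. Wnt5a was divided between a transcript of 360 codons (61.4% and 56.3%) and one of 380 codons (37.5% and 29.1%). Wnt7b was divided between transcripts of 356 codons (56.1% and 55.2%) and 349 codons (42.9% and 44.0%).

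In Apc and Dvl1 the leading transcript is not annotated as protein-coding. A model of 608 nt annotated as a target of nonsense-mediated decay held 45.2% of the Apc TPM in pup 1 and 47.2% in pup 3, and transcripts of types other than protein-coding together held 47.8% and 51.0%. A transcript with a retained intron held 45.7% and 45.2% of the Dvl1 TPM, and transcripts of such other types together 63.0% and 68.1%. About as much of the TPM of these 2 genes was therefore assigned to models of other types as to protein-coding ones, or more. These shares are the authors' estimates from reads that overlapping transcripts share, given per transcript length, so a short model takes a larger share of TPM than of reads.

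**Figure D3:**
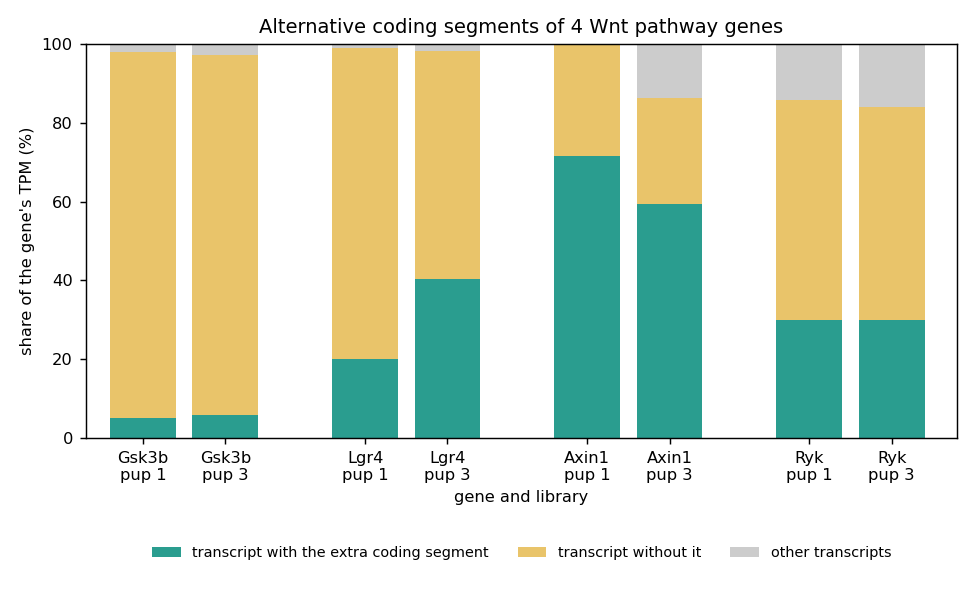
Share of each gene's TPM (%) in pup 1 and pup 3 held by the transcript with the extra coding segment (green), the transcript without it (yellow) and all other transcripts (grey), for Gsk3b, Lgr4, Axin1 and Ryk. The form without the segment leads in Gsk3b, Lgr4 and Ryk and the form with it leads in Axin1. The Lgr4 share with the segment is 20.0% in pup 1 and 40.4% in pup 3, and no interval was computed for the shares.

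Related genes were then compared within each library. A pair of genes was called apart where both libraries gave the same sign, the mean log2 difference of (TPM + 0.1) was over 1 and over 3 SD, and the deposited intervals did not overlap in either library. Of 24 pairs of relatives or partners, 18 were apart. The pairs were picked by hand, and some genes are in more than 1 pair. The share of other gene pairs that would pass the same rule was not computed. The count is therefore not a result about Wnt relatives. No p-value is given, since with 2 animals the smallest p of an exact sign-flip test (two-sided) is 0.5. Among ligands, Wnt3 stood above Wnt3a by 6.03 ± 0.34, Wnt5a above Wnt5b by 2.97 ± 0.31, and Wnt7b above Wnt7a by 1.19 ± 0.30 (log2, SD, n = 2). With 1 TPM added in place of 0.1 the Wnt3 difference was 3.37, and with 0.01 TPM it was 7.37, so its size depends on the value added. The Wnt7b difference was 0.98 in pup 1 alone, under the threshold, and 1.40 in pup 3. Over protein-coding transcripts only, its mean was 1.29. Among receptors, Fzd1 stood above Fzd7 by 3.13 ± 0.21 and above Fzd2 by 1.84 ± 0.010, Fzd9 above Fzd10 by 2.26 ± 0.19, and Fzd3 above Fzd6 by 1.68 ± 0.34. Ror1 stood below Ror2, with a log2 difference of -1.27 ± 0.024, and Sfrp1 below Sfrp2 with -1.43 ± 0.13. Ctnnb1 stood above Apc by 1.62 ± 0.20, by 2.58 over protein-coding transcripts only, and by 0.94 on counts not divided by length, which is under the threshold.

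The 6 pairs that were not apart were Wnt2b and Wnt2, Wnt9a and Wnt4, Fzd5 and Fzd8, Rspo2 and Rspo3, Axin1 and Axin2, and Ctnnb1 and Gsk3b. Wnt2b and Wnt2 differed by 0.17 ± 0.21, less than the spread between the pups. Axin1 was above Axin2 by 0.93 in pup 1 and 1.51 in pup 3, a mean of 1.22 ± 0.41 that fell just short of 3 SD. Fzd5 over Fzd8 was -1.45 in pup 1 and -0.47 in pup 3. Rspo2 over Rspo3 was close in both pups, -0.74 ± 0.031, below the threshold of 1, and Ctnnb1 over Gsk3b was 0.96 ± 0.060.

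**Figure D4:**
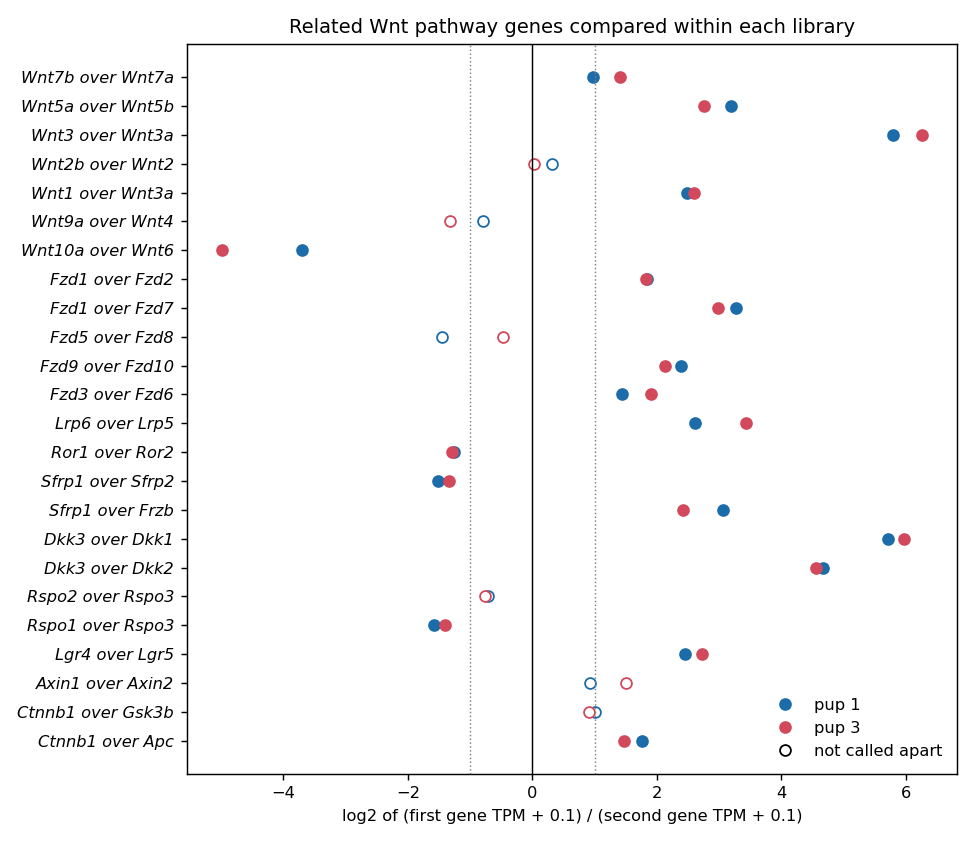
Log2 of (first gene TPM + 0.1) over (second gene TPM + 0.1) within pup 1 (blue) and pup 3 (red) for 24 pairs of related genes; dotted lines mark -1 and 1, and open circles are pairs not called apart. The 18 filled pairs lie on the same side of 0 in both pups, from Wnt10a over Wnt6 on the left to Wnt3 over Wnt3a on the right.

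Between the 2 pups no Wnt pathway gene was called different, but the median size of their differences was above that of all genes. Of the 48, 33 had a mean of 100 counts or more, and 0 of these differed between the pups by more than 1 on the log2(TPM + 0.1) scale, a size that 0.315% of the 13318 genes at that depth passed. The median size of the difference was 0.20 over the 33 genes and 0.11 over the 13318. At a smaller size of 0.58, Frzb passed, as did 2.03% of all genes at that depth. Of the 33 genes, 23 were higher in pup 3 and 10 lower, against 54.8% of all genes higher in pup 3. On counts scaled by TMM, a trimmed mean of gene ratios, the split was 19 higher and 14 lower, against 47.0% of all genes.

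Frzb was higher in pup 3 by 0.88 on the log2(TPM + 0.1) scale, and its depth-scaled count ratio had a log2 value of 0.89 with an exact binomial interval of 0.47 to 1.32 (95%, counting error only). Fzd3 was higher in pup 3 by 0.50, on 1355 and 2093 counts, with a count ratio interval of 0.39 to 0.58. Lrp6 was higher in pup 3 by 0.52 in TPM but by only 0.17 in counts, with an interval of 0.034 to 0.31; the share of its leading transcript was 77.5% in pup 1 and 59.2% in pup 3. Of the 33 genes, Lgr5, Wnt5a, Axin1, Wnt3, Fzd6 and Fzd9 had opposite signs in TPM and in TMM-scaled counts. For Wnt3 the values were 0.010 and -0.014, for Fzd6 0.021 and -0.0021, and for Fzd9 0.022 and -0.0025. On depth-scaled counts, Lgr5 differed by 0.16 (-0.29 in TPM), Wnt5a by -0.090 (0.16 in TPM) and Axin1 by -0.015 (0.20 in TPM). Among genes lower in pup 3, Fzd4 differed by -0.42, Wnt7a by -0.40 and Axin2 by -0.37, and none of these passed 0.58. On depth-scaled counts, Fzd4 differed by -0.46, Wnt7a by -0.22 and Axin2 by -0.32. Transcripts not annotated as protein-coding held 13.6% of the Wnt7a TPM in pup 1 and 0% in pup 3.

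With the minimum lowered to a mean of 10 counts, 46 members were compared, and 1 of them passed a difference of 1, as did 2.12% of all genes at that depth. This was Wnt16 (1.17 on the log2(TPM + 0.1) scale), whose count ratio interval of -0.065 to 2.09 included 0. Wnt10a differed by -1.22 at a mean of 9 counts, with an interval of -3.36 to 0.059. Fzd5, at a mean of 91 counts, was higher in pup 3 by 0.90 with a count ratio interval of 0.60 to 1.55. On TMM-scaled counts the differences were 1.01 for Fzd5 and 0.79 for Wnt16, so which of them passed 1 depended on the scaling. Wnt8b was higher in pup 3 by 0.70, with an interval of 0.069 to 1.77.

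**Figure D5:**
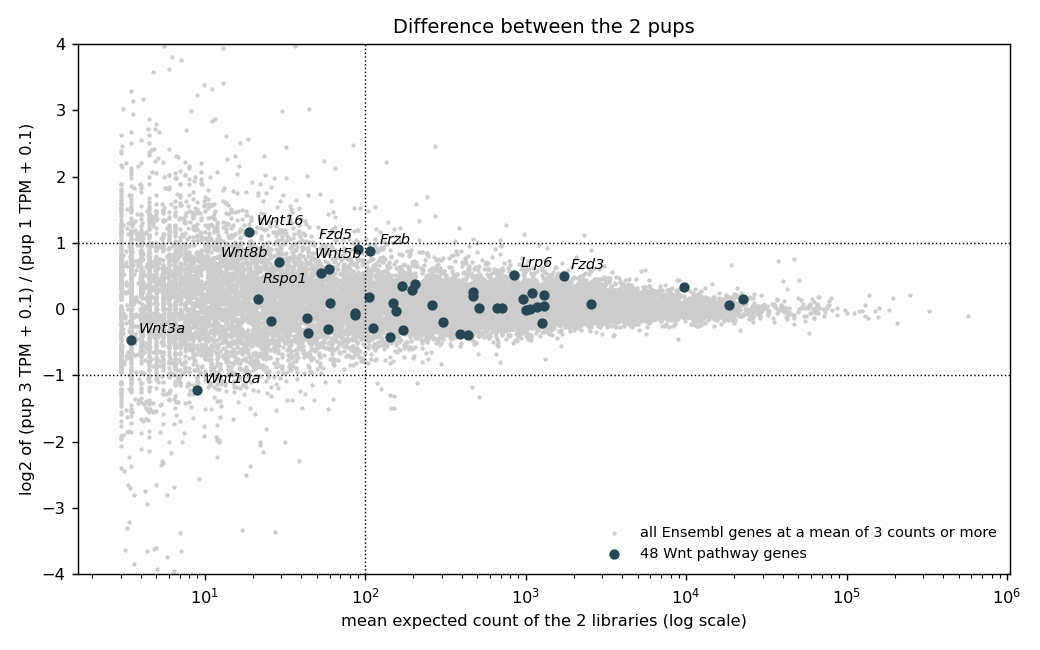
Log2 of (pup 3 TPM + 0.1) over (pup 1 TPM + 0.1) against the mean expected count (log scale) for the 48 Wnt pathway genes (dark) and the 20534 Ensembl genes at a mean of 3 counts or more (grey; 41 lie outside the axis). Dotted lines mark 100 counts and differences of -1 and 1; no Wnt pathway gene right of 100 counts lies outside them.

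Markers of regions next to the midbrain differed between the pups as follows. Of all genes at 100 counts or more, 0.315% passed a difference of 1. Past it at that depth were 2 of the 8 forebrain markers, Dlx1 (8.97 and 21.8 TPM) and Dlx2 (2.64 and 7.18 TPM). So were 5 of the 7 hypothalamic markers, Oxt, Avp, Hcrt, Pmch and Six6, with the hormone gene Avp at 124 and 270 TPM and Six6 at 1.02 and 3.27 TPM. The summed TPM of 6 cerebellar markers was 59.4 and 77.4, with 5 higher and 1 lower in pup 3 and 0 past a difference of 1. Zic1 (3.52 and 6.98 TPM) and Zic2 (5.88 and 11.8 TPM) came close to it, with log2 differences of 0.97 and 0.99. The lower marker, Atoh1, had 1 count in pup 1 (0.02 TPM) and 0 in pup 3. The summed TPM of 5 thalamic and habenular markers was 310 and 317, with 4 of 5 higher in pup 3 and 0 past a difference of 1. That of 5 hindbrain and spinal cord markers was 0.08 and 0.04. In the other direction, 8 dopaminergic and floor plate markers summed to 78.6 and 61.6 TPM, with 2 higher and 6 lower in pup 3. The sum was led by Th (29.8 and 22.3 TPM), Slc6a3 (20.7 and 12.2 TPM, a log2 difference of -0.76) and Ddc (20.1 and 19.7 TPM). The 5 endothelial markers summed to 147 and 126 TPM, mostly from Cldn5 (117 and 98.3 TPM), with 1 higher and 4 lower in pup 3. The higher one was Slco1a4, at 1.5 and 2.56 TPM, a log2 difference of 0.73. Choroid plexus and ependyma markers summed to 27.9 and 31.3 TPM, with 3 higher and 3 lower in pup 3. This sum hides the choroid plexus marker Ttr, at 0.85 and 5.16 TPM, a log2 difference of 2.47. Ttr rested on 22 and 146 counts, a mean below the minimum of 100, so it was not called. Meninges and fibroblast markers summed to 365 and 371 TPM. The part of these markers' cells in the levels of Frzb, Fzd3, Fzd5, Wnt8b or any other member was not tested.

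The machinery around the 48 genes was also read. Of 64 further pathway genes, 56 reached 1 TPM in each pup, against 62.1% of all protein-coding genes. Of the 56 with 100 counts or more, 0 differed between the pups by more than 1, against 0.315% of all genes at that depth. The 3 genes of ligand export and removal were all read: Porcn, which attaches the lipid, at 37.9 and 36.0 TPM, Wls, the carrier that takes Wnt proteins to the cell surface, at 40.7 and 36.6 TPM, and Notum, which removes the lipid, at 3.00 and 2.65 TPM. The highest of the 64 were Tcf7l2, a nuclear partner of β-catenin, at 645 and 726 TPM, and the small GTPases Rac1 (292 and 294 TPM) and Rhoa (206 and 214 TPM). All 15 cytoplasmic and all 10 nuclear genes of the list reached 1 TPM in both pups. So did 10 of 11 planar polarity genes, 7 of 9 genes listed as further inhibitors, and 10 of 13 co-receptors and receptor turnover genes.

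Of 15 genes known as Wnt targets, 12 reached 1 TPM in each pup, against 62.1% of all protein-coding genes. Of the targets, 3 (Axin2, Lgr5 and Dkk1) are also among the 48. The highest were Lef1 (43.9 and 43.8 TPM), Myc (29.7 and 25.1 TPM) and Tnfrsf19 (23.0 and 20.7 TPM), and the lowest was Cdx1 (0.08 and 0.10 TPM), an intestinal target. Of the 15, 12 were lower in pup 3 in TPM and 11 on TMM-scaled counts, and 0 of the 12 with 100 counts or more passed a difference of 1. Of all genes at that depth, 54.8% were higher in pup 3 in TPM and 47.0% on TMM-scaled counts, and 0.315% passed a difference of 1. The median difference over the 12 targets with 100 counts or more was -0.085 on the log2(TPM + 0.1) scale.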

How the data were processed

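Total RNA was sequenced from 2 single midbrains, 1 library each; the labels name separate pups, so the spread between libraries covers animal and technical differences together. The authors deposited expected counts, TPM and FPKM per gene and transcript, posterior TPM with credibility bounds (level not given in the sources used here) and each transcript's percent of its gene's TPM. Per the labels the build is mm10, and per the deposited text records the annotation is GENCODE M4. For the quantification program, its version and the use of strand, the sources used here give nothing.

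Symbols, positions and transcript types came from GENCODE M21 on the same build, matched by Ensembl ID without version (42462 of 43346 genes matched); the leading transcript had the same length in both annotations for 36 of the 48 members, and differences in the models can change lengths, so TPM. Log2 values used a pseudocount of 0.1 TPM. Differences between pups were called past 1 at a mean count of 100 or more, with exact binomial (Clopper-Pearson) 95% intervals of depth-scaled count ratios, which cover counting error only. With 1 group no p-value was computed. Calculations used Python 3.11.15, pandas 2.3.3 and SciPy 1.17.1, and were tested on simulated data. Alternatives were other TPM minimums, pseudocounts, posterior TPM, FPKM, counts scaled by edgeR 4.0.16 (TMM) or DESeq2 1.42.0 in R 4.3.3, and leaving out each pup.

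Members and lists were chosen with earlier results of these data known. Of the marker lists, 1 forebrain marker is not reported here and is in no count or sum. The rule for named genes gives both pups' values for members with a mean TPM of at least 5, the lowest of each class, both genes of each pair described and members near or past the threshold. Of other lists, it gives the 3 highest, the lowest and those called. The markers Ttr, Zic1, Zic2, Slc6a3 and Slco1a4 were named outside this rule, for the size of their differences between the pups.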

Additional observations from a re-analysis of the deposited data

How the results depend on the processing

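The count of members at 1 TPM or more in both pups (36) was 40 at 0.5 TPM, 25 at 2 TPM and 28 on FPKM. With TPM recomputed over nuclear protein-coding genes only, all values of a pup are multiplied by 1 constant, so class medians were higher by construction. The class medians were then 1.59 for ligands, 3.06 for receptors, 7.30 for secreted inhibitors, 56.4 for intracellular members and 2.58 for R-spondin and LGR genes. Over members at 1 TPM or more only, they were 5.94 for ligands, 4.22 for receptors and 10.6 for inhibitors. The count of members differing between pups was 0 with 100 counts, and it was 1 at a mean count of 10 or more, 2 with no filter and 1 with a threshold of 0.58. Of the pairs called apart, 5 lost the call under some alternative. Wnt7b over Wnt7a was not apart from pup 1 alone (0.98). Wnt1 over Wnt3a (0.77) and Ror1 over Ror2 (-0.71) were not apart with a pseudocount of 1. On counts not divided by length, Sfrp1 over Sfrp2 (-0.26), Ctnnb1 over Apc (0.94) and Ror1 over Ror2 (-0.85) were not apart, and Ctnnb1 over Gsk3b, not apart, turned to -0.28. Some alternatives used a looser rule. On counts and on protein-coding transcripts only, the deposited intervals were not used, and from a single pup there is no SD to exceed. Of the 6 pairs not apart, 5 gained the call somewhere. Wnt2b over Wnt2 (1.00) and Wnt9a over Wnt4 (-1.44) did so on counts not divided by length. Wnt9a over Wnt4 also did so from pup 3 alone (-1.32), and Fzd5 over Fzd8 (-1.45) and Ctnnb1 over Gsk3b (1.00) did so from pup 1 alone. Axin1 over Axin2 was apart under 5 alternatives, among them protein-coding transcripts only (1.39). The causes were not tested beyond what each alternative changes by construction. No paired analysis was possible because the series has 1 group. Depth limits the 7 ligands below 1 TPM in both pups, whose counts were 48 or fewer.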
